A study of Homo sapiens with 4 samples.

Results

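A 5 kb anchor on chromosome 13 that held no annotated gene, chr13:30690001-30695000 (hg19), carried 9 H3K27ac-associated loops in WT M14 melanoma cells and 20 in STAG2-KD cells. The start of UBL3, 270 kb to its left, carried 12 WT loops and 4 STAG2-KD loops, whereas the starts of HMGB1 to its right carried 4 in WT and 11 in STAG2-KD. The starts of KATNAL1, the next protein-coding gene to the right of the hub, carried 0 loops in both lists. The loops described here are those with an anchor equal to the hub bin or holding an annotated transcript start of KATNAL1, HMGB1 or UBL3. They were 47 different loops, 23 of the 27289 loops of the WT list and 32 of the 25621 loops of the STAG2-KD list, and 8 of them were in both lists.

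A chromatin loop in such data joins a pair of genome segments that were close together in the nucleus. Cohesin, a ring-shaped complex, forms loops by drawing in chromatin until it meets a barrier, most often the DNA-binding protein CTCF bound in an orientation that faces the loop. STAG2 and its paralog STAG1 are alternative subunits of this ring. Acetylation of histone H3 at lysine 27 marks active promoters and enhancers, so loops between acetylated anchors are used as a map of promoter and enhancer contacts. Among the genes studied here, HMGB1 encodes an abundant DNA-bending chromatin protein that also acts as a danger signal when it leaves the cell. UBL3 encodes a membrane-anchored ubiquitin-like protein that is linked to the sorting of proteins into extracellular vesicles, and KATNAL1 encodes a member of the katanin family of microtubule-severing enzymes.

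HiChIP, which enriches ligated chromatin contacts with an antibody, was performed with an H3K27ac antibody in M14, an established line of human melanoma. The cells contained a construct that expresses a short hairpin RNA to STAG2 when doxycycline is added, and they grew under puromycin selection. The STAG2-KD group received doxycycline for 5 days and the WT group did not. The WT cells therefore carried the same hairpin construct, and effects of doxycycline itself and of the knockdown cannot be told apart in this design. There were 2 samples per group by the labels, and a single list of loops was analysed for each group, deposited with replicate 1. Descriptions of the samples carry the word merged, and whether a list combined both replicates was not stated. The lists held positions without read numbers or scores, so the depth behind each loop was unknown, differences could not be checked in replicates, and no p-value is given. No loop lay on chromosome X, so the lists hold no loop at STAG2, and loop positions do not measure the knockdown. The paper reports separately that many STAG2 binding sites lost signal in M14 cells after knockdown. In HiChIP, a change in acetylation at an anchor and a change in contact cannot be told apart from loop positions.

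The hub was selected on its number of STAG2-KD-only loops, and the genes were chosen by their place beside it, so its numbers are a description and not independent evidence of a gain. For reference, 59.5% of all STAG2-KD loops were absent from the WT list and 62.0% of all WT loops were absent from the STAG2-KD list. Among the 649 anchors of the genome with at least 10 loops in a list, 9.09% had at least 2 times as many loops in STAG2-KD as in WT and 16.9% had the reverse. Among the 444 protein-coding genes with at least 10 loops at their starts in a list, these shares were 10.1% and 9.01%.

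Sequences from the hub anchor and from the promoters of the member genes are shown to place the hub beside them, and were read from the GRCh37 genome, which shares the chromosome 13 coordinates of hg19. The first is the stretch of 300 bases in the hub anchor with the most sites of MboI, the enzyme that cut the chromatin. It lay outside any annotated gene, and capitals mark the GATC sites.
Hub stretch, chr13:30690798-30691097, plus strand: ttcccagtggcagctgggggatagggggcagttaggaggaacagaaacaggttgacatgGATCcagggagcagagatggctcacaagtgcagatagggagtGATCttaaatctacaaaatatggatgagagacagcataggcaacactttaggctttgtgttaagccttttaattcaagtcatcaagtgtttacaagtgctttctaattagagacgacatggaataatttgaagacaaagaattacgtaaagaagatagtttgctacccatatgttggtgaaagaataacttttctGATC
The next are the 250 bases upstream of the start of each member gene, all on the minus strand, and the 95 bases between the distal start of HMGB1 and the neighbouring start of USPL1. Capitals mark CG dinucleotides, which are frequent at promoters of widely used genes.
UBL3 promoter, chr13:30424755-30425004, minus strand: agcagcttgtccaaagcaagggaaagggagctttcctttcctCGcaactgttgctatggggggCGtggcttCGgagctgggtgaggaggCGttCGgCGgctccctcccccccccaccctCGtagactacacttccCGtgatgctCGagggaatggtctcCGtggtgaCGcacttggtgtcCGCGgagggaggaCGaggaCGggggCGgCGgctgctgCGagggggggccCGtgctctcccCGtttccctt
KATNAL1 promoter, chr13:30881689-30881938, minus strand: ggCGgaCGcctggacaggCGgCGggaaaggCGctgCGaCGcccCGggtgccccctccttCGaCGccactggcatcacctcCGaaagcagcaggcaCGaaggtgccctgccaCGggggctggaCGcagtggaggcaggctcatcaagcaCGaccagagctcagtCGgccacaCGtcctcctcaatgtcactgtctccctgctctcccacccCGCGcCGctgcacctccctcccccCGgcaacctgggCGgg
HMGB1 promoter, chr13:31040076-31040325, minus strand: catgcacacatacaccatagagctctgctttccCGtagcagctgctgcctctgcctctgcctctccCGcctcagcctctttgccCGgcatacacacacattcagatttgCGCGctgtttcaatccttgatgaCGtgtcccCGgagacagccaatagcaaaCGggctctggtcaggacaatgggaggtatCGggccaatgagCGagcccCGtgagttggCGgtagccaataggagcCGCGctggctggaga
HMGB1 and USPL1 intergenic stretch, chr13:31191735-31191829, plus strand: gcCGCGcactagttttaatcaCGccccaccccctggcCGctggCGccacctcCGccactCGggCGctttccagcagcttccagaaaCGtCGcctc
The promoters held 20 CG dinucleotides at UBL3, 22 at KATNAL1 and 14 at HMGB1, and the stretch between HMGB1 and USPL1 held 10. The hub stretch held 2, but it has 300 bases and was chosen for its MboI sites, so these numbers are not of like stretches. Over whole 5 kb anchors, the hub held 57 CG dinucleotides and the anchor with the UBL3 start held 179. The anchors from 31035001 and 31190001, which hold HMGB1 starts, had 262 and 140. The HMGB1 promoter stretch lies inside the long HMGB1 transcript that begins at the distal start, and it overlaps an exon of the long noncoding RNA ENSG00000285840 on the other strand.

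Sequence at the partners of the hub was searched for the core of the CTCF motif, written as CCANNAGNNGGC with N for any base, on both strands. The hub anchor itself held no match. Of its 24 different partners in both lists together, 8 held a match, which is 33.3%, against 17.8% of all 30601 anchors of the lists. A match was found at 6 of the 15 STAG2-KD-only partners, 1 of the 4 WT-only partners and 1 of the 5 shared partners. The matched sites follow in the order of their position, with the motif in capitals and each written 5′ to 3′ on the strand of the motif.
MTUS2 intron, STAG2-KD-only, chr13:30046649-30046680, plus strand: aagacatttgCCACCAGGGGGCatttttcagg
Between MTUS2 and SLC7A1, STAG2-KD-only, chr13:30082439-30082470, plus strand: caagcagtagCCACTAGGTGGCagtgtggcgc
SLC7A1 intron, STAG2-KD-only, 2 adjoining matches, chr13:30167041-30167084, plus strand: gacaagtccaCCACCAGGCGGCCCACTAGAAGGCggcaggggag
Intergenic, WT-only, chr13:30265203-30265234, plus strand: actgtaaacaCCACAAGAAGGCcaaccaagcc
UBL3 intron, STAG2-KD-only, chr13:30345484-30345515, plus strand: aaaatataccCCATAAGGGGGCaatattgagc
LINC00384 exon, shared, chr13:30733075-30733106, minus strand: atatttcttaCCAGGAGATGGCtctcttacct
Intergenic, STAG2-KD-only, chr13:30909393-30909424, minus strand: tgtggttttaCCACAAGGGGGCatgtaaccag
Intron of ENSG00000286286, STAG2-KD-only, chr13:31618697-31618728, minus strand: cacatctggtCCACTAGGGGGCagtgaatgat
All 5 left partners with a match carried it on the plus strand and all 3 right partners with a match carried it on the minus strand, so that each match pointed towards the hub. Over all left anchors of the lists with matches on 1 strand, 53.4% were on the plus strand, and over all right anchors 56.3% were on the minus strand. A match is a string of letters and not a measured binding site.

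At the hub, the WT list held 4 loops to the left and 5 to the right, and the STAG2-KD list held 13 to the left and 7 to the right. The larger number in STAG2-KD was therefore mostly on the UBL3 side. The 24 different hub loops comprised 5 in both lists, 4 in the WT list alone and 15 in the STAG2-KD list alone. The loops in both lists were 55.6% of those of WT, with an exact binomial interval at 95% of 21.2 to 86.3, and 25% of those of STAG2-KD, with an interval of 8.66 to 49.1. These intervals cover the counting of loops only, and loops of 1 anchor are not independent. The distance between anchor midpoints had a median of 425 kb in WT, with a range of 40 to 930 kb, and a median of 345 kb in STAG2-KD, with a range of 25 to 925 kb.

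**Figure D1:**
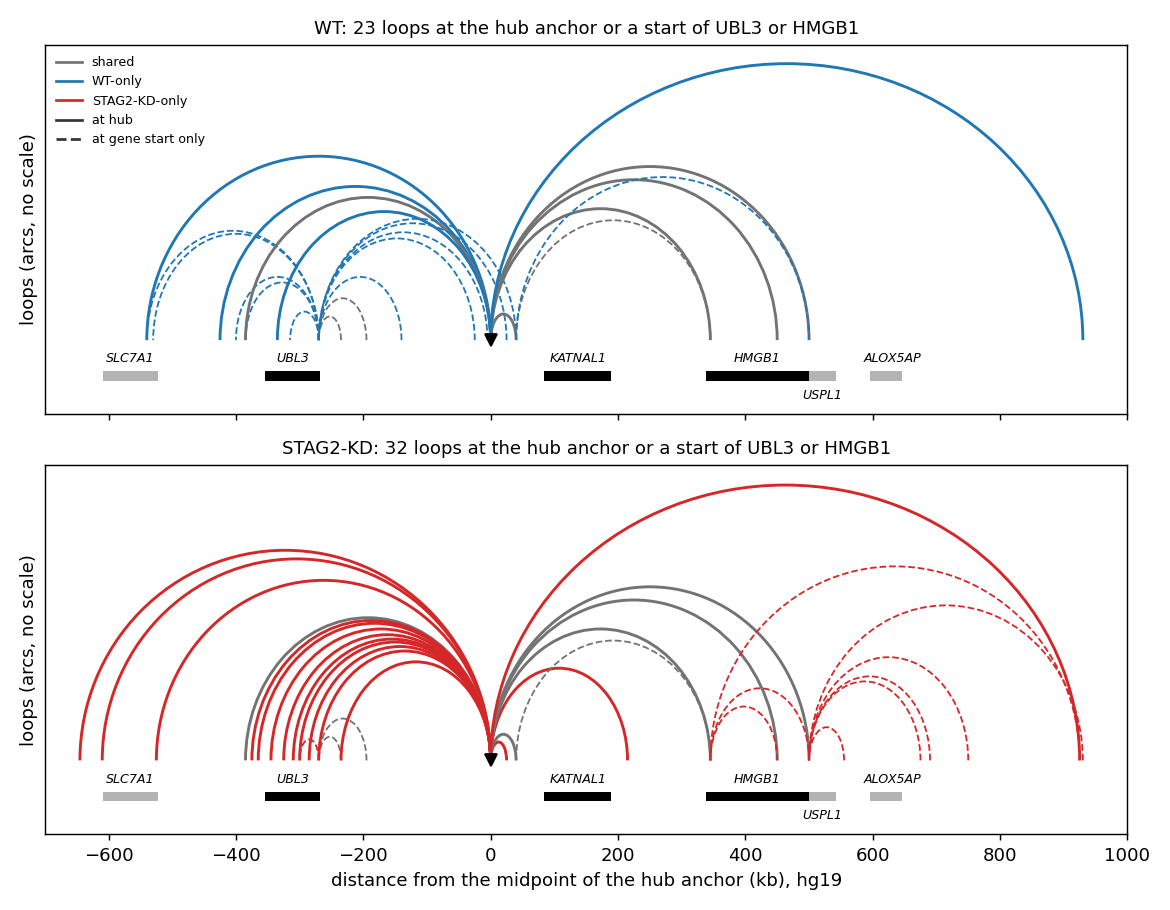
Arcs join the anchor midpoints of the loops at the hub (solid) or at a start of UBL3 or HMGB1 only (dashed), for WT above and STAG2-KD below, against distance from the hub in kb; arc height has no scale, and black and grey bars are genes. Grey arcs are shared, blue arcs WT-only and red arcs STAG2-KD-only, with 23 loops in WT and 32 in STAG2-KD, and 6 of the 12 solid red arcs that run left from the hub end in UBL3.

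The left side held 1 shared loop, 3 WT-only loops and 12 STAG2-KD-only loops. The shared partner lay 385 kb away at 30305001, in intergenic sequence beyond the end of UBL3. WT-only partners lay in SLC7A1, the gene of a cationic amino acid transporter, at 540 kb, in intergenic sequence at 425 kb and in UBL3 at 335 kb. STAG2-KD-only partners ran from 235 kb at LINC00297 to 645 kb in MTUS2. They included the start of SLC7A1 at 525 kb and the start of UBL3 at 270 kb. Of these 12 partners, 6 lay in separate bins across the 86.2 kb UBL3 gene, from 30345001 to 30425000. In WT, 1 hub loop reached that gene.

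On the right, 4 of the 5 WT loops were also in the STAG2-KD list. Their partners were the bin of LINC00384 and LINC00385 at 40 kb, the bin of the clustered HMGB1 starts at 345 kb, a bin in the long HMGB1 transcript at 450 kb and the bin with the distal HMGB1 start and the USPL1 starts at 500 kb. The remaining WT loop ran 930 kb to the bin from 31620001, and a STAG2-KD-only loop ran 925 kb to the bin before it. The other STAG2-KD-only loops on this side ran 25 kb and 215 kb, to the bins from 30715001 and 30905001. Contacts of the hub with bins holding an HMGB1 start were thus listed in both states, with 2 loops in each. The bin at 500 kb is also that of USPL1, and the shared partner at 450 kb lies in HMGB1 away from its starts.

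Neighbouring bins were then considered, to find loops that ended close to the hub or to its partners. The 2 bins beside the hub carried 3 WT loops and 1 STAG2-KD loop. Of the 15 STAG2-KD-only hub loops, 3 had a WT loop within 1 bin at both anchors and 6 within 2 bins, whereas 9 had none within 2 bins. Those within 1 bin were the loop to the UBL3 start, the loop of 610 kb to the bin from 30080001 and the loop of 925 kb. Taken as the larger of the 2 anchor offsets, the offset to the nearest WT loop had a median of 3 bins and a largest value of 26. With the neighbouring bins counted as part of the hub, the numbers were 12 in WT and 21 in STAG2-KD, a ratio of 1.75 in place of 2.22.

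Of the 15 STAG2-KD-only partners, 6 were anchors of some loop in the WT list and the others were not. Among the 4 WT-only partners, 2 were anchors in the STAG2-KD list. Loops also joined partners of the hub to each other, which closes a triangle with the hub. This was the case for 5 of the 36 possible pairs of partners in WT and for 8 of the 190 possible pairs in STAG2-KD.

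UBL3 (ENSG00000122042, minus strand, 30338508 to 30424754) had 1 annotated start, in the bin from 30420001. Its 12 WT loops were 5 to the left and 7 to the right, and its 4 STAG2-KD loops were 1 to the left and 3 to the right. The WT number was 3 times the STAG2-KD number, against 9.01% of the protein-coding genes with at least 10 loops that had at least 2 times as many in WT. UBL3 reached 10 loops in the WT list only, so the share gives scale and is not a test. Shared loops ran 35 kb to LINC00297 and 75 kb to the bin from 30495001. In WT, 4 loops joined this start to the stretch from 25 kb before the hub to 40 kb beyond it, at the bins from 30665001, 30685001, 30715001 and 30730001. The single STAG2-KD loop to that stretch ended in the hub bin itself. The stretch ends at the outermost of these WT bins, so the contrast of 4 and 1 follows in part from its limits. The 5 left loops of WT were all WT-only and ended at 2 bins of SLC7A1, in the intergenic bins from 30290001 and 30305001 and within UBL3. The median distance of loops at this start was 188 kb in the WT list and 55 kb in the STAG2-KD list.

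HMGB1 (ENSG00000189403, minus strand, 31030841 to 31191734) had 8 different annotated starts in 3 bins. The bin from 31035001, with 4 of these starts, carried 2 WT loops and 5 STAG2-KD loops. The distal start at 31191734 lies 96 bases from the first start of USPL1, which encodes a SUMO peptidase, and transcription runs in opposite directions. Their bin carried 2 WT loops and 7 STAG2-KD loops, and the loops cannot be assigned to either gene. The canonical start at 31040073 fell just past the border of the first bin, in the bin from 31040001, which carried 0 loops in both lists. In all, HMGB1 had 4 loops in WT and 11 in STAG2-KD, 2.75 times as many, against 10.1% of the genes with at least 10 loops that had at least 2 times as many in STAG2-KD. HMGB1 reached 10 loops in the STAG2-KD list only, and only with its bins counted together. The share therefore gives scale and is not a test.

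The lists differed in the direction of the HMGB1 loops. All 4 WT loops ran left, 2 to the hub and 2 to the bin of LINC00384. In STAG2-KD, 3 of these were found again, and the 8 STAG2-KD-only loops all ran right from an HMGB1 start. They joined the clustered starts to a bin inside the long HMGB1 transcript over 105 kb, to the distal start over 155 kb and to the bin from 31615001 over 580 kb. From the distal start they reached the bins from 31245001, 31365001, 31380001, 31440001 and 31620001, at 55 to 430 kb. These bins lie on both sides of ALOX5AP, whose product supplies arachidonic acid to a lipoxygenase in leukotriene synthesis. Taken as the larger of the 2 anchor offsets, the distance from each of the 8 to the nearest WT loop was at least 25 bins. Single ends could still be anchors of other WT loops. The bins from 31365001 and 31380001 carried 2 WT loops each, whereas those from 31245001 and 31615001 carried 0. Of these 8, 2 stood in the first 50% of the chromosome 13 lines of the STAG2-KD list, and in the first 50% of both lists HMGB1 had 0 loops in WT and 4 in STAG2-KD. What sets the order of lines was not stated.

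KATNAL1 (ENSG00000102781, minus strand, 30776767 to 30881688) had 5 annotated starts in 2 bins and 0 loops at either, so the data do not tie the hub to the promoter of this gene. Having no loop was common, as 55.5% of the 19229 protein-coding genes on the 22 chromosomes with loops had none at their starts in either list. KATNAL1 had 0 loops in both lists also when starts within 5 kb of an anchor were counted. The nearest anchor to the canonical start was the bin from 30905001, with its midpoint 25.8 kb away, which held 0 loops in WT and 1, to the hub, in STAG2-KD. Loops passed over the KATNAL1 start without ending there. There were 7 such loops in the WT list, 4 of them from the hub, and 8 in the STAG2-KD list, 5 of them from the hub. A loop that is missing from such a list may have fallen short of the caller's limit, so no contact is shown to be absent.

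**Figure D2:**
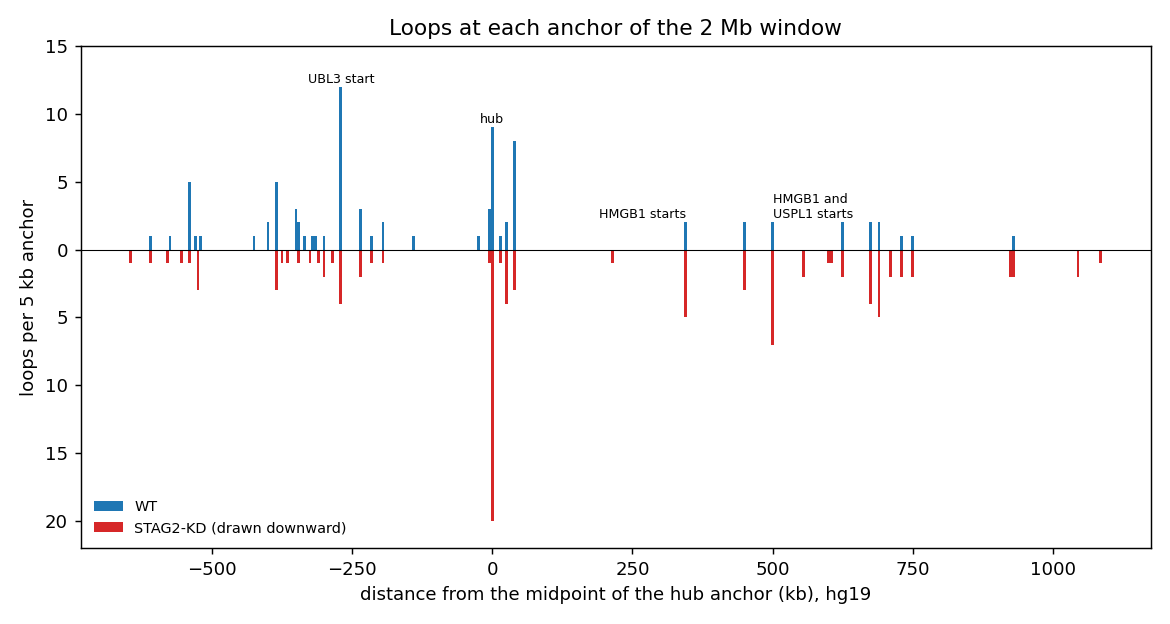
Bars give the number of loops at each 5 kb anchor of the window from 30 to 32 Mb, WT upward in blue and STAG2-KD downward in red, against distance from the hub in kb. The highest WT bar is the UBL3 start with 12 loops and the highest STAG2-KD bar is the hub with 20.

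Other genes of the window from 30 to 32 Mb give the setting. It held starts of 12 protein-coding genes, of which 6 had a loop at a start in a list. The number was higher in STAG2-KD for 4 of them (HMGB1, USPL1, SLC7A1 and HSPH1), higher in WT for UBL3 and equal for ALOX5AP. SLC7A1 had 1 loop in the WT list and 3 others in the STAG2-KD list. HSPH1, which encodes a heat shock chaperone, had 0 and 2, and ALOX5AP had 2 and 2 with 1 shared. KATNAL1, MTUS2, UBE2L5, MEDAG, TEX26 and B3GLCT had 0 in both lists.

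The window as a whole held 42 WT and 50 STAG2-KD loops, and 13 were shared. Shared loops made up 31.0% of the WT loops (17.6 to 47.1) and 26% of the STAG2-KD loops (14.6 to 40.3). Elsewhere on chromosome 13 the shares were 37.3% (33.3 to 41.4) and 44.0% (39.5 to 48.6). The intervals overlapped, narrowly for the STAG2-KD shares, and overlap of intervals is not a test of a difference. The ratio of STAG2-KD to WT loops was 1.19 in the window and 0.847 on the rest of the chromosome. Of the 514 windows of 2 Mb in the genome with at least 20 loops in a list, 21.8% had a ratio at least as high. Hub loops made up 21.4% of the WT window loops and 40% of the STAG2-KD window loops. The window was placed around the hub, so the selection of the hub enters the window shares and the ratio of 1.19. Without hub loops the window held 33 WT and 30 STAG2-KD loops, a ratio of 0.909, and 8 were shared. These were 24.2% of the WT loops (11.1 to 42.3) and 26.7% of the STAG2-KD loops (12.3 to 45.9).

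Loops with both anchors to the left of the hub numbered 20 in the WT list and 7 in the STAG2-KD list, and 4 were shared. Those with both anchors to the right of the KATNAL1 start numbered 4 and 18, and 2 were shared. These limits leave out the loops of the hub itself and were set after the lists had been seen, and the split has no test. Single anchors on the left went the other way, as the SLC7A1 starts had more loops in STAG2-KD. The bin of LINC00384, between the hub and KATNAL1 and so outside both limits, had fewer in STAG2-KD. Over single bins, the most loops were 21 in both lists, at the UBL3 start in WT and at the hub in STAG2-KD. The canonical start of ALOX5AP was passed by 1 loop in WT and 10 in STAG2-KD, whereas the SLC7A1 start was passed by 6 and 3.

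**Figure D3:**
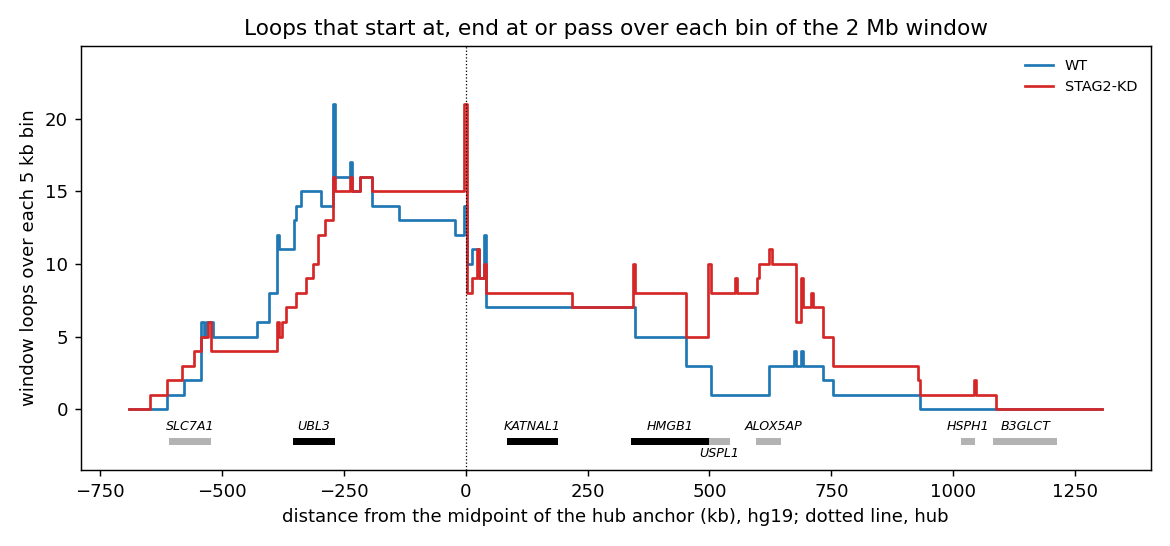
Lines give the number of window loops that begin at, end at or pass over each 5 kb bin, blue for WT and red for STAG2-KD, against distance from the hub in kb, with genes as bars underneath. The blue line peaks at 21 at the UBL3 start, and the red line peaks at 21 at the hub. The red line lies above the blue line over ALOX5AP, whose canonical start is passed by 1 WT and 10 STAG2-KD loops.

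In all, 8 anchors of the window had at least 5 loops in a list, and 4 of them are not described above in full. The bin of LINC00384 carried 8 WT loops and 3 STAG2-KD loops, all 3 of them shared. The bin from 30150001 in SLC7A1 carried 5 and 1, and the intergenic bin from 30305001 carried 5 and 3. To the right, the bin from 31380001 in LINC00398 carried 2 and 5.

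Among all anchors of the genome, 483 of 22955 had more loops than the hub in WT and 13 of 22070 had more in STAG2-KD. On chromosome 13 it had rank 14 in the WT list and rank 1 in the STAG2-KD list. The difference of 11 loops was exceeded by 3 of the 649 anchors with at least 10 loops and equalled by 4 others, and the median difference over these anchors was -1. Since the hub was picked for its STAG2-KD-only loops, which enter this difference, its rank is given for scale only.

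**Figure D4:**
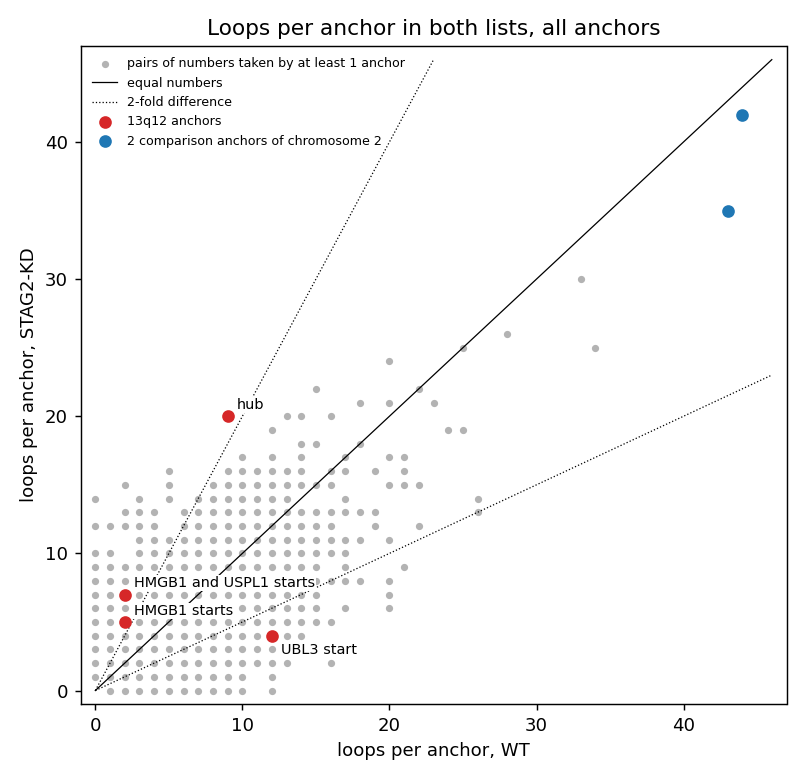
Each grey point is a pair of loop numbers, WT on the horizontal and STAG2-KD on the vertical axis, taken by at least 1 anchor of the genome; solid and dotted lines mark equal numbers and differences of 2 times. Red points are the anchors at the hub (9 and 20), the UBL3 start (12 and 4), the HMGB1 starts (2 and 5) and the HMGB1 and USPL1 starts (2 and 7), and blue points are 2 comparison anchors on chromosome 2 near the equal line.

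Anchors with the most similar pair of numbers were sought by Euclidean distance of log2(number + 1) over the 2 lists. The 3 nearest were the start of BCAN-AS2 on chromosome 1 (156630001 to 156635000) with 10 WT and 17 STAG2-KD loops, a bin in ENSG00000258077 on chromosome 12 (76215001 to 76220000) with 10 and 17, and the start of ENSG00000258082 on chromosome 1 (235115001 to 235120000) with 11 and 21. Their distances were 0.26, 0.26 and 0.27. The BCAN-AS2 bin differed on 1 side only, with 7 left loops in both lists and 3 right loops in WT against 10 in STAG2-KD. Both comparison anchors of chromosome 2, which had the most loops of all anchors, had ratios nearer to 1. The start of TRIB2, a pseudokinase gene, carried 44 WT loops and 42 STAG2-KD loops, 27 of them shared, and the anchor from 12455001 in MIR3681HG carried 43 and 35 with 22 shared.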

How the data were processed

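H3K27ac HiChIP of M14 cells was analysed from 1 deposited loop list per group, and samples were grouped by their titles. Chromatin was cut with MboI. According to the methods, the authors aligned reads to hg19 with HiC-Pro, called peaks with hichip-peaks and loops with FitHiChIP, with versions not given in the sources used here. The deposited lists gave a chromosome and the outer borders of both anchors, with no count or score.

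Positions were read on a 5 kb grid and are printed counted from 1. Loops were shared when both anchors had the same bins, and distances join anchor midpoints. Shares carry exact Clopper-Pearson intervals at 95%, which cover counting only. Annotation was GENCODE release 44 lifted to GRCh37, and motifs were matched exactly on both strands of the GRCh37 sequence. The members and lists were chosen with earlier results of these data known. Genes named were the members, protein-coding genes with a start from 30 to 32 Mb, genes starting in partner anchors, window anchors with at least 5 loops in a list, the 3 nearest anchors by loop numbers and 2 comparison anchors on chromosome 2. Other transcripts at the anchors are named for location only and were added after their values were seen. Tested on simulated data, the scripts recovered 8 of 8 planted values. Python 3.11.15, numpy 2.4.6, scipy 1.17.1 and matplotlib 3.10.9 were used. The alternatives tried changed the bins, starts, list size, lines or distance limit.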

Additional observations from a re-analysis of the deposited data

How the results depend on the processing

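Of 60 values recomputed under the alternatives over 17 results, 47 stayed within 1.5 times the reported value or, for shares, within its interval, and 13 moved further. A reversal was looked for in the hub ratio only, and none was found. UBL3 stayed higher in WT and HMGB1 higher in STAG2-KD in every setting. The window share was higher for WT in the main setting, at 31.0% against 26%. It was lower for WT without hub loops, at 24.2% against 26.7%, and with the earlier lines, at 29.2% against 31.8%. Several of the 47 could not move. Scaling WT leaves the STAG2-KD numbers as they are, and UBL3 has 1 annotated start. The 0 loops of KATNAL1 stay 0 under scaling or with fewer lines. With the earlier 50% of the lines of each chromosome, the hub had 5 loops in WT and 12 in STAG2-KD, a ratio of 2.4, with 3 hub loops of each list found in the other, 2 WT-only and 9 STAG2-KD-only. HMGB1 then had 0 loops in WT and 4 in STAG2-KD, and UBL3 had 2 in STAG2-KD. Fewer lines give fewer loops by construction. With anchors within 1 bin counted as the same, 8 STAG2-KD hub loops were found in WT, and within 2 bins 11 were, leaving 2 WT-only and 9 STAG2-KD-only hub loops. The hub ratio ran from 1.75 with the neighbouring bins included to 2.4 with the earlier lines, and was 2.37 with WT scaled to the STAG2-KD list size. The limit of 1 Mb removed 0 hub loops and so tests nothing. No paired analysis was possible because only 1 list of loops stood for each group. For the same reason no replicate could be left out, and a stricter score limit was not run because the lists hold positions only. Without read numbers, the depth that limits each loop is unknown.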

Other observations

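Further sequence features of the hub and its partners were counted with no test. The hub anchor held 0 matches of TGANTCA, the motif bound by AP-1 factors, against 80.6% of all 30601 anchors with at least 1. It held 0 matches of the E-box CACGTG, which MITF and other basic helix-loop-helix factors recognise, against 43.0% of anchors with at least 1. Both motifs read the same on both strands apart from the open base of the first. No match says only that these letters are not in this window. The GC content of the hub was 44.4%, beside a median of 44.1% over all anchors. It held 18 MboI sites, beside a median of 14, and 21.3% of anchors had at least as many.

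GC content of the 15 STAG2-KD-only partners ran from 32.6% to 52.8%. In the 5 of them inside UBL3 but away from its start it ran from 32.6% to 39%, and the start of SLC7A1 had 52.8%. The part of base composition or of MboI sites in the loop numbers was not tested.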
